A study of Mus musculus with 14 samples.

Results

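Clustered protocadherins are cadherin-like adhesion proteins of the cell surface, best known in neurons, where each cell uses its own selection of them to tell its own branches from those of other cells. Their genes lie side by side in an alpha, a beta and a gamma cluster on mouse chromosome 18. Each gene has a variable first exon with its own promoter, and in the alpha and gamma clusters that exon is spliced to constant exons shared by the whole cluster. The variable exon encodes the extracellular and membrane-spanning part of the protein. In neurons the choice of promoter is known to go with DNA methylation and with binding of CTCF and cohesin, and the C-type genes at the end of the alpha and gamma clusters are less variable in their use than the A and B types.

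The sites described here are those that the methylation table assigned to a clustered protocadherin gene by symbol. They were 17 of 75761 sites, in 6 of 12627 genes, measured in all 14 mice. Methylation had been read by reduced-representation bisulfite sequencing (RRBS), which sequences bisulfite-converted DNA from short fragments cut by MspI at CCGG, in the mammary fat pad contralateral to an orthotopic E0771 mammary tumor. The methylation level is the methylated share of the reads at a site, and with no read counts in the table the depth of any level is unknown.

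All mice were female C57BL/6NCrl, 8 weeks old on arrival, and all, controls included, were injected with E0771 cells, a line of mouse mammary tumor cells. CON-LFD mice (n = 3) ate a low-fat diet with 10% of calories as fat throughout. The others ate a high-fat diet with 60% of calories as fat for 15 weeks to become obese. DIO-HFD mice (n = 4) stayed on it, DIO-LFD mice (n = 3) were changed to the low-fat diet, and DIO-VSG mice (n = 4) had vertical sleeve gastrectomy, the removal of most of the lateral stomach, and then ate the low-fat diet. Every mouse without gastrectomy had a sham procedure, so CON-LFD, DIO-HFD and DIO-LFD mice were sham-operated. Tumor cells were injected 7 weeks after surgery and tissue was taken 4 weeks later. CON-LFD, DIO-LFD and DIO-VSG mice thus differed from DIO-HFD mice in the diet they ate when tissue was taken. The fat pad is bulk tissue, in which a change in the mix of cell types and a change of methylation within cells cannot be told apart. The tissue could not be checked from the levels, since 5 of 11 adipocyte markers, 5 of 7 mammary epithelial markers, 4 of 10 lymphocyte markers and 3 of 6 neuronal markers had a site. The median level of the promoter sites was 48.4% over 8 adipocyte sites, 42.8% over 2 epithelial sites, 48.1% over 8 lymphocyte sites and 16.4% over 14 neuronal sites. The 14 neuronal sites were all in 1 gene, Rbfox3. Over the 8 lymphocyte promoter sites, in 2 of the 10 genes, the mean was 61.6% ± 14.6 (SD, n = 4) in DIO-HFD mice, with replicate 1 at 39.8% and the others from 67.7% to 70.5%. It was 52.3% ± 8.83 (SD, n = 3) in CON-LFD, 52.8% ± 8.0 (SD, n = 3) in DIO-LFD and 43.8% ± 1.98 (SD, n = 4) in DIO-VSG mice. Over all 28 lymphocyte sites, in 4 genes, DIO-HFD was instead the lowest group, at a mean of 58.4%. Replicate 1 was at 66.2% there and the other DIO-HFD mice from 55.0% to 57.3%. The means over these sites were 61.8% in CON-LFD, 63.1% in DIO-LFD and 62.7% in DIO-VSG mice. Over the 37 adipocyte sites the DIO-HFD mean was 68.5% ± 5.19 (SD, n = 4), with replicate 1 at 75.9% and the others from 63.8% to 67.6%, and the means of the CON-LFD, DIO-LFD and DIO-VSG groups were 74.5% ± 4.50, 73.8% ± 1.95 and 76.3% ± 0.712. Over the 13 epithelial sites DIO-HFD was the highest group, at a mean of 64.8%. The means there were 60.3% in CON-LFD, 62.9% in DIO-LFD and 64.3% in DIO-VSG mice. Over the 46 neuronal sites the means were 53.8% in CON-LFD, 50.9% in DIO-HFD, 55.3% in DIO-LFD and 54.9% in DIO-VSG mice. Over all sites of the table DIO-HFD was also the lowest group, at 59.2%. The others were at 62.1% (CON-LFD), 62.2% (DIO-LFD) and 63.5% (DIO-VSG). The part of cell types in the results was not tested.

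Only the gamma cluster was represented. The 17 sites belonged to 6 of its 22 genes, Pcdhga4 (5 sites), Pcdhga11 (4 sites), and Pcdhgb2, Pcdhga10, Pcdhgb7 and Pcdhgc4 (2 sites each). None of the 14 alpha genes and none of the 22 beta genes had a site, so the clusters could not be compared. CCGG was present in every first exon, with 84 copies over the 14 alpha exons, 95 over the 22 beta exons and 179 over the 22 gamma exons. The median CpG density of the exons was 46.8 per kb in alpha, 20.7 per kb in beta and 39.2 per kb in gamma. What kept alpha and beta sites out of the table was not tested.

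All 17 sites were at the C of a CpG, and all lay within a variable first exon of mm10 by GENCODE M21, on chromosome 18. Positions are given here as the distance from the transcript start that the table names, negative upstream. The Pcdhga4 sites lay at +792, +794, +806, +833 and +836, from 37686000 to 37686044, in coding sequence. Those of Pcdhgb2 lay at +228 and +242 (37690054 and 37690068), also coding. Those of Pcdhga10 lay at +991 and +1000 (37747982 and 37747991) and those of Pcdhgb7 at +1497 and +1500 (37753095 and 37753098), all of them coding. Pcdhga11 had sites at +13, +85 and +89 (37755742, 37755814 and 37755818) in its 5′ UTR, which were the only ones in a CpG island. Its site at -1599 (37754132) lay in the coding first exon of the gene before it, Pcdhgb7, 61 bp before the end of that exon. Pcdhgc4 had a site at +111 (37815510) in its 5′ UTR and one at +243 (37815642) in coding sequence. An exon of the antisense gene Gm26672 overlapped the Pcdhga10 sites and the 5′ UTR sites of Pcdhga11. The table flagged 14 of the 17 as promoter sites, all but -1599 of Pcdhga11 and both sites of Pcdhgb7. No site lay in a gene's shared constant exons.

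**Figure D1:**
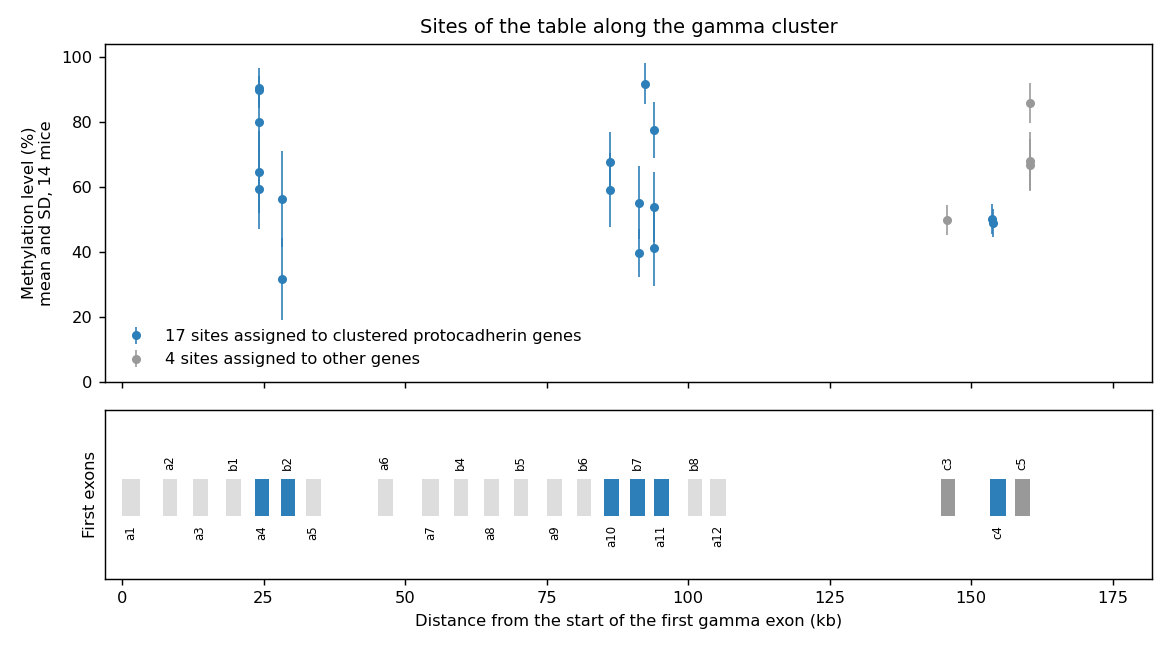
Upper panel, mean methylation level (%) with SD over 14 mice of the 21 sites of the table in the gamma cluster, against the distance in kb from the start of the first gamma exon. Lower panel, the 22 variable first exons without the prefix Pcdhg, in blue where they hold one of the 17 sites, dark gray where they hold only a site assigned to another gene, and light gray where they hold none. The sites fall in 8 exons, and their means run from 31.7% at Pcdhgb2 +242 to 91.8% at Pcdhga11 -1599.

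The sites were intermediately methylated. Of the 17, 12 (70.6%) had a mean over the 14 mice between 30% and 70%, against 39.0% of all sites of the table, 59.4% of all promoter sites and 52.2% of promoter sites outside islands. The other 5 were above 70%, at +806, +833 and +836 of Pcdhga4 and at -1599 and +13 of Pcdhga11. No site was below 30%, where 14.9% of all sites lay. The median level was 59.0%, against 66.5% over all sites and 47.7% over promoter sites. These are descriptions of 17 sites in 6 exons, and sites a few base pairs apart can share reads.

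The genes differed in level more than the groups did, with sites counted under the symbol the table gives. Pcdhga4, an A-type gene, had the highest mean over its sites, 76.8% ± 4.46 (SD, n = 14 mice), and ranged from 68.0% to 84.9%. Pcdhgb2, a B-type gene, had the lowest, 43.9% ± 11.3 (SD, n = 14), and ranged from 21.1% to 59.9%. Between them stood Pcdhga11 at 66.1% ± 6.29, Pcdhga10 at 63.3% ± 8.33, Pcdhgc4 at 49.5% ± 1.13 and Pcdhgb7 at 47.4% ± 7.71 (SD, n = 14). Neighbors in this order overlapped across mice. By type, the 11 sites of A-type genes averaged 70.5% ± 4.16 and the 4 sites of B-type genes 45.7% ± 6.90 (SD, n = 14). Both the order of the genes and the gap between the types depended on Pcdhga11 -1599, which lies in the exon of the B-type gene Pcdhgb7. Counted by exon, Pcdhga11 had 3 sites at 57.6% ± 7.48 and Pcdhgb7 had 3 at 62.2% ± 6.70 (SD, n = 14). The A type was then at 68.3% ± 4.49 over 10 sites and the B type at 54.9% ± 5.80 over 5 (SD, n = 14). Counted by symbol, the mice of the types did not overlap, with the lowest for the A type at 63.9% and the highest for the B type at 53.8%. By exon they did, at 61.2% and 61.8%. Within a mouse the A type was above the B type in 14 of 14 mice by either count, by 24.8 percentage points on average by symbol and 13.4 by exon. Every mouse repeats the same sites of 3 A-type and 2 B-type genes, at unlike positions in their exons. By exon the B-type Pcdhgb7 was above the A-type Pcdhga11, so the difference did not hold for every gene. The single C-type gene, Pcdhgc4, averaged 49.5% and had the smallest spread of the 6 genes. That spread is of the mean of 2 sites that moved against each other, with SDs of 4.54 and 4.29 percentage points singly. In the exon of Pcdhgc5, also C-type, 3 sites assigned to another gene had SDs of 8.88, 8.13 and 6.12. The site in the exon of Pcdhgc3 had 4.62.

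Within an exon, neighboring sites could differ by a large step that recurred in every mouse. In the 5′ UTR of Pcdhga11 the level fell from 77.5% at +13 to 41.3% at +85, 72 bp away, a step of 36.2 percentage points, and +13 was higher in 14 of 14 mice. At Pcdhgb2 the level was 56.2% at +228 and 31.7% at +242, 14 bp apart, and +228 was higher in 14 of 14 mice. At Pcdhgb7 the sites at +1497 and +1500 were 3 bp apart and had means of 55.1% and 39.8%, with +1497 higher in 14 of 14 mice. At Pcdhga4 the site at +794 was lower than that at +806 in 14 of 14 mice, by 30.4 percentage points on average. In contrast, +792 and +794 of Pcdhga4 did not keep an order, since +794 was higher in 6 of 14 mice. They also came apart within a mouse. In DIO-VSG replicate 1 they were listed at 100% and 40.0%, although they are 2 bp apart.

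The spread between mice was wide for most sites. The standard deviation over the 14 mice was largest at Pcdhgb2 +228, at 14.7 percentage points, and 88.3% of the 8933 sites of the table within 5 points of its mean level had a smaller one. For 13 of the 17 sites it was above the median of sites of like level. The match was on level alone and not on CCGG, outside which 14 of the 17 sites lie. Over all sites the median SD was 5.99 percentage points within CCGG and 7.31 elsewhere. The SD can also depend on read depth, which is unknown. The narrowest were Pcdhgc4 and 1 site of Pcdhga4, where the SD was 4.54 and 4.29 percentage points at Pcdhgc4 +111 and +243 and 4.39 at Pcdhga4 +806. These 3 sites were below the SD of 0.05 (5 percentage points) that the study required, so 14 of the 17 sites were tested between groups.

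**Figure D2:**
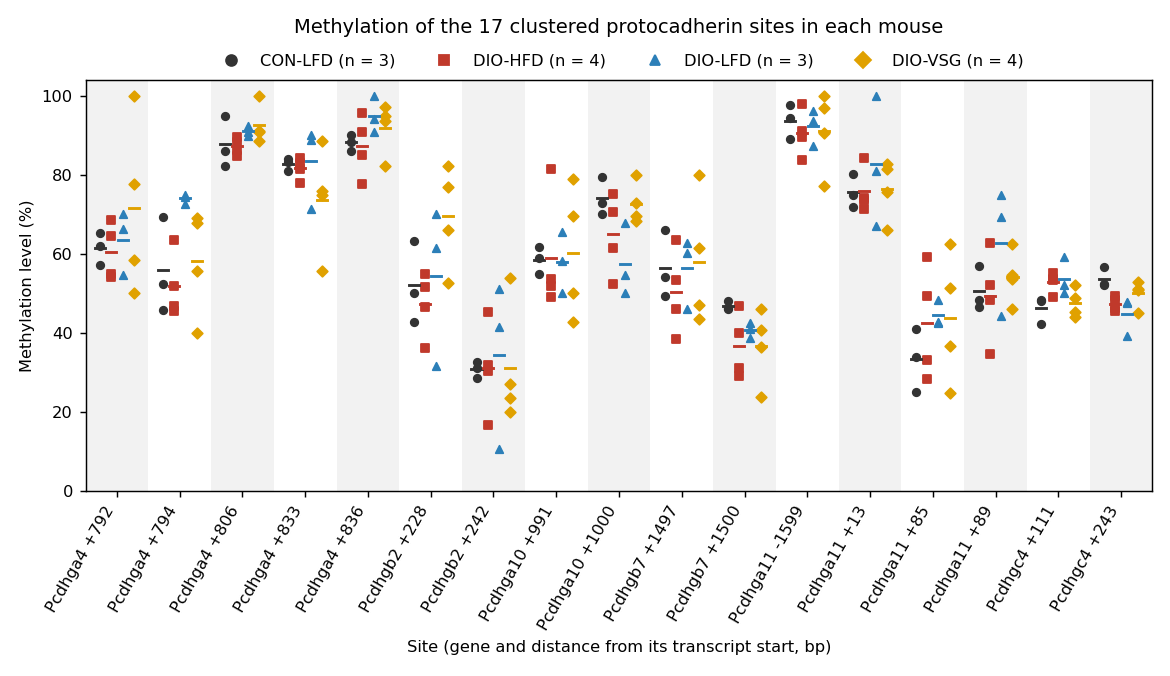
Methylation level (%) of each of the 17 sites in each of the 14 mice, with sites on the horizontal axis by gene and distance in bp from the transcript start. Each symbol is a mouse and each short bar a group mean. Levels differ between sites far more than between the 4 groups, and the DIO-LFD mice at Pcdhga4 +794, from 72.7% to 75%, stand above all DIO-HFD mice.

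Each level b was converted to M = log2((b + 0.01)/(1 − b + 0.01)), and a single limma model of the 4 groups was used over all 65610 sites with an SD of at least 0.05, with p-values adjusted by the Benjamini-Hochberg method over these sites and a threshold of 0.05. A difference in M of 1 is a change by a factor of about 2 in the ratio of methylated to unmethylated reads. DIO-HFD replicate 1 stood apart across the whole table, with a mean over all sites of 65.0% against 56.9%, 57.4% and 57.3% in DIO-HFD replicates 2, 3 and 4, so results against DIO-HFD are also given without it. The comparisons with DIO-HFD share those 4 mice.

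CON-LFD mice differed from DIO-HFD mice both in obesity and in the diet eaten throughout, which their comparison cannot tell apart. By limma, 0 of the 14 tested sites passed the threshold and 0 had an unadjusted p under 0.05, against 0% and 7.76% of all tested sites. Levels were higher in CON-LFD than in DIO-HFD mice at 10 of the 14 sites, 71.4%, where the share over all tested sites was 70.2%. The smallest p was at Pcdhgb7 +1500. Its level was 46.3%, 46.1% and 48.1% in the CON-LFD mice and 40.0%, 46.8%, 29.2% and 31.1% in the DIO-HFD mice. The CON-LFD mice were close together and DIO-HFD replicate 2 lay among them, so the groups overlapped. The difference in M was 0.60 ± 0.37 (SE; limma adjusted p = 0.620).

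The next sites were Pcdhga10 +1000 and Pcdhga11 +85. Pcdhga10 +1000 was at 79.5%, 70.1% and 72.8% in CON-LFD mice and 75.2%, 70.5%, 61.6% and 52.3% in DIO-HFD mice. The difference in M was 0.60 ± 0.41 (SE; limma adjusted p = 0.632), with DIO-HFD replicates 1 and 2 among the CON-LFD mice. Pcdhga11 +85 went the other way, at 33.9%, 40.9% and 25% in CON-LFD and 59.2%, 49.3%, 33.0% and 28.3% in DIO-HFD mice. The groups overlapped, and the difference in M was -0.55 ± 0.56 (SE; limma adjusted p = 0.733).

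Both Pcdhgc4 sites, left out of the test by their small SD, separated CON-LFD from DIO-HFD mice in opposite directions. At +111 the CON-LFD mice were at 48.4%, 48.0% and 42.3% and the DIO-HFD mice at 55.1%, 53.3%, 53.7% and 49.1%, so every CON-LFD mouse was lower. At +243 the CON-LFD mice were at 52.3%, 52.2% and 56.7% and the DIO-HFD mice at 45.6%, 48.3%, 49.4% and 46.3%, so every CON-LFD mouse was higher. Over all 75761 sites, the groups did not overlap at 4.91%, and at 4.68% of the tested sites. With no filter on the SD, the limma adjusted p was 0.643 at +111 and 0.642 at +243. The mean of the pair did not separate the groups, at 50.0% ± 0.432 (SD, n = 3) in CON-LFD and 50.1% ± 1.67 (SD, n = 4) in DIO-HFD mice.

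Dietary weight loss was addressed by DIO-LFD against DIO-HFD. By limma, 0 of the 14 sites passed the threshold (0.00305% of all tested sites did), and 1 of 14 had an unadjusted p under 0.05 (10.1% of all tested sites). That site was Pcdhga4 +794, in the coding first exon. Its level was 75%, 74.5% and 72.7% in the DIO-LFD mice and 63.5%, 46.8%, 45.5% and 51.7% in the DIO-HFD mice. All DIO-LFD mice were above all DIO-HFD mice. The groups did not overlap, in either direction, at 1 of the 14 tested sites and at 4.80% of all tested sites. All DIO-LFD mice were also above all DIO-HFD mice at Pcdhga4 +806, not tested for its small SD. The margin there was narrow (at least 89.7% in DIO-LFD and at most 89.6% in DIO-HFD mice). At Pcdhga4 +794 the difference was 22.2 percentage points, or 1.37 ± 0.46 in M (SE; limma adjusted p = 0.494). Over the alternatives tried its adjusted p by limma ran from 0.0413 to 0.758, and it passed the threshold in 1 of 22 of them, without DIO-HFD replicate 1, where the difference in M was 1.59. In that setting 14.6% of all tested sites passed as well.

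The site 2 bp upstream, Pcdhga4 +792, did not show this difference. It was at 70.0%, 66.4% and 54.5% in DIO-LFD mice and 68.6%, 55.0%, 54.1% and 64.5% in DIO-HFD mice, and the groups overlapped. The difference in M there was 0.19 ± 1.16 (SE; limma adjusted p = 0.955). Among the CON-LFD mice Pcdhga4 +794 was at 69.4%, 52.4% and 45.8%, within the range of the DIO-HFD mice except for replicate 1.

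After Pcdhga4 +794 came Pcdhga4 +836 and Pcdhga11 +89. Pcdhga4 +836 was at 100%, 94.2% and 90.9% in DIO-LFD mice and 90.9%, 95.8%, 77.8% and 84.9% in DIO-HFD mice, with a difference in M of 1.65 ± 0.82 (SE; limma adjusted p = 0.497). Without DIO-LFD replicate 1, listed at 100%, that difference was 0.60, and with an offset of 0.1 it was 0.69. Pcdhga11 +89, in the 5′ UTR, was at 75%, 44.3% and 69.2% in DIO-LFD and 48.3%, 52.0%, 62.7% and 34.6% in DIO-HFD mice, with a difference of 0.83 ± 0.48 (SE; limma adjusted p = 0.515). The groups overlapped at both. In all, 12 of the 14 sites (85.7%) had a higher mean level in DIO-LFD mice, against 69.7% of all tested sites, and the median difference in M was 0.27, against 0.30 over all tested sites.

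Surgical weight loss was addressed by DIO-VSG against DIO-HFD. These groups differed in gastrectomy and in the later diet together, which their comparison cannot tell apart. By limma, 0 of the 14 sites passed the threshold (0.00305% of all tested sites) and 1 had an unadjusted p under 0.05, where 25% of all tested sites did. The site was Pcdhgb2 +228, in the coding first exon of a B-type gene. Its level was 76.9%, 52.6%, 82.4% and 66.0% in the DIO-VSG mice and 54.8%, 46.7%, 36.2% and 51.7% in the DIO-HFD mice. DIO-VSG replicate 2 lay below DIO-HFD replicate 1, so the groups overlapped, and the other DIO-VSG mice were above all DIO-HFD mice. The difference was 22.1 percentage points, or 1.39 ± 0.54 in M (SE; limma adjusted p = 0.162, from 0.0655 to 0.351 over the alternatives tried).

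Pcdhgb2 +242, 14 bp downstream, showed no such difference. It was at 20.0%, 27.0%, 23.5% and 53.8% in DIO-VSG mice and 45.3%, 30.3%, 16.7% and 31.9% in DIO-HFD mice, with wide overlap. In DIO-LFD mice Pcdhgb2 +228 was at 70.0%, 61.5% and 31.6%, the widest spread of any group at this site.

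Pcdhga4 +792 and Pcdhga10 +1000 had the next smallest p. Pcdhga4 +792 was at 100%, 50.0%, 77.8% and 58.5% in DIO-VSG mice, on both sides of the DIO-HFD mice given above, and the difference in M was 1.61 ± 1.07 (SE; limma adjusted p = 0.344). Without DIO-VSG replicate 1, listed at 100%, that difference was 0.13, and with an offset of 0.1 it was 0.81. Pcdhga10 +1000 was at 73.0%, 80.0%, 69.6% and 68.4% in DIO-VSG mice, within or above the DIO-HFD range, with a difference in M of 0.50 ± 0.38 (SE; limma adjusted p = 0.395). None of the 14 sites separated the groups, against 7.58% of all tested sites. In all, 12 of 14 sites (85.7%) had a higher mean level in DIO-VSG mice, against 73.1% of all tested sites. The median difference in M was 0.32, against 0.48 over all tested sites.

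The number of sites past the threshold depended on DIO-HFD replicate 1. In its absence 12.0% of all tested sites passed the threshold in the comparison of CON-LFD with DIO-HFD, 14.6% in that of DIO-LFD and 34.4% in that of DIO-VSG. Of the 14 protocadherin sites, 0, 1 and 0 did. The site that passed was Pcdhga4 +794 in DIO-LFD mice (limma adjusted p = 0.0413). Whether the members differ from the table in this respect was not tested.

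The 2 weight loss groups were compared directly in DIO-VSG against DIO-LFD. Both went from the high-fat to the low-fat diet, with gastrectomy in DIO-VSG and a sham procedure in DIO-LFD mice. By limma, 0 of the 14 sites passed the threshold (0.00305% of all tested sites) and 2 had an unadjusted p under 0.05 (3.98% of all tested sites), 1 higher and 1 lower in DIO-VSG mice. Pcdhga10 +1000 was higher in DIO-VSG mice, with every mouse above the 67.7%, 54.6% and 50.0% of the DIO-LFD mice, by 15.3 percentage points or 0.96 ± 0.41 in M (SE; limma adjusted p = 0.945). Pcdhga4 +794 was lower in DIO-VSG mice, at 40.0%, 55.6%, 69.0% and 67.7%, with every mouse below the DIO-LFD mice, by 16.0 percentage points or -1.0 ± 0.46 in M (SE; limma adjusted p = 0.945). Groups did not overlap at these 2 sites, and at 7.74% of all tested sites. Pcdhgb2 +228 followed, with a difference in M of 0.98 ± 0.59 (SE; limma adjusted p = 0.945) and overlapping groups. Levels were higher in DIO-VSG mice at 5 of 14 sites (35.7%), against 62.0% of all tested sites.

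**Figure D3:**
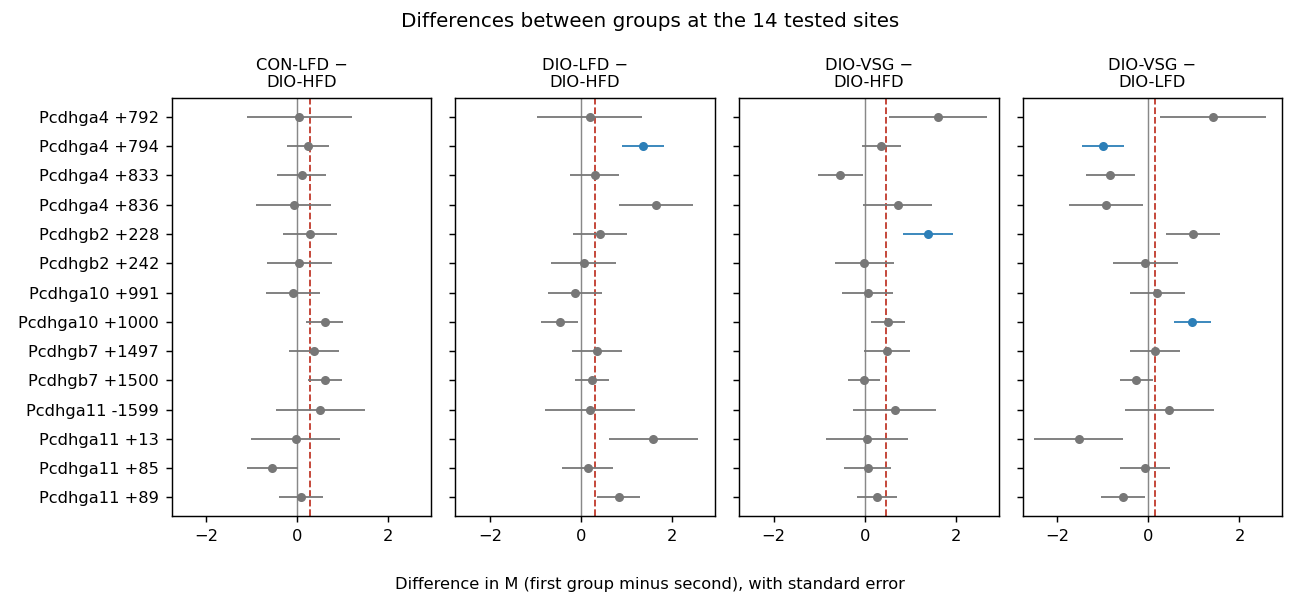
Differences in M between groups (horizontal axis, first group minus second) at the 14 tested sites, with standard errors from limma, 1 panel per comparison. Blue marks an unadjusted p under 0.05, the gray line is 0 and the dashed red line is the median over all 65610 tested sites. The blue sites number 0, 1, 1 and 2 in the 4 panels, and no site had an adjusted p under 0.05.

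Averaged over the 17 sites, the mice of the groups overlapped. The mean level was 62.5%, 62.4% and 60.0% in CON-LFD mice and 65.9%, 61.9%, 54.6% and 56.8% in DIO-HFD mice. It was 68.8%, 63.6% and 59.8% in DIO-LFD mice and 66.7%, 64.8%, 60.8% and 61.7% in DIO-VSG mice. The widest spread was among the DIO-HFD mice, in which replicate 1 was the highest, as it was over all sites of the table.

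As group means these were 61.7% ± 1.40 (SD, n = 3) for CON-LFD, 59.8% ± 5.09 (SD, n = 4) for DIO-HFD, 64.1% ± 4.51 (SD, n = 3) for DIO-LFD and 63.5% ± 2.75 (SD, n = 4) for DIO-VSG mice. Relative to DIO-HFD the means were higher by 1.85, 4.28 and 3.70 percentage points in CON-LFD, DIO-LFD and DIO-VSG mice, where the means over all sites of the table were higher by 2.97, 3.07 and 4.38. DIO-VSG mice were 0.573 percentage points below DIO-LFD mice at the protocadherin sites, and 1.31 above them over all sites. Leaving out DIO-HFD replicate 1 made the 3 differences 3.9, 6.31 and 5.74 percentage points, and 4.92, 5.03 and 6.34 over all sites. With each mouse set relative to its median level over the table, the differences from DIO-HFD became -2.46 percentage points in CON-LFD, 0.0786 in DIO-LFD and -3.28 in DIO-VSG mice. The direction for CON-LFD and DIO-VSG mice thus depended on this scaling.

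**Figure D4:**
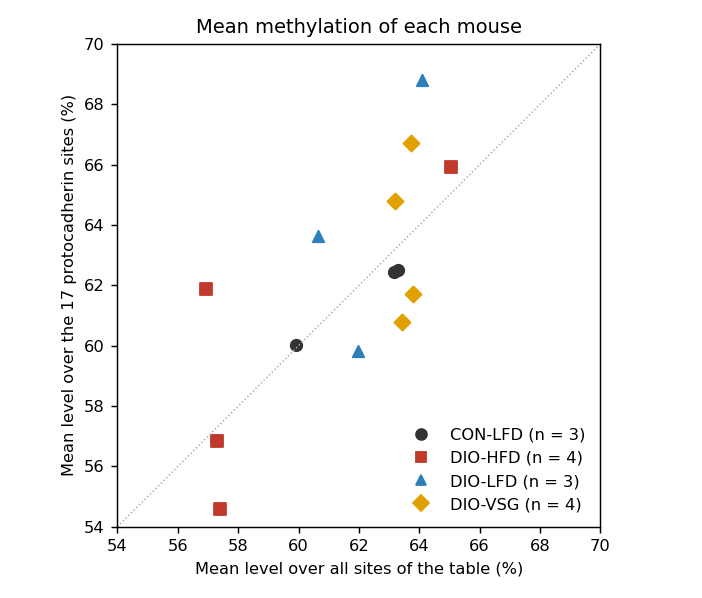
Mean methylation level (%) over the 17 protocadherin sites (vertical) against the mean over all 75761 sites (horizontal) in each of 14 mice, with the line of equal values dotted. The DIO-VSG mice sit within a narrow range over all sites and spread from 60.8% to 66.7% over the protocadherin sites, and DIO-HFD replicate 1 lies apart from the other DIO-HFD mice.

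By type, with sites counted by symbol, the A-type sites averaged 69.3% ± 0.978 (SD, n = 3) in CON-LFD, 68.3% ± 5.62 (SD, n = 4) in DIO-HFD, 73.2% ± 4.11 (SD, n = 3) in DIO-LFD and 71.5% ± 3.84 (SD, n = 4) in DIO-VSG mice. The B-type sites averaged 46.5% ± 3.23, 41.4% ± 7.83, 46.4% ± 12.0 and 48.8% ± 1.83 in the same order. Groups overlapped in every comparison for both types.

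The Pcdhgc4 sites stood out by how their levels moved against each other. They lie at 2 CCGG motifs that follow each other in mm10, 132 bp apart, with no CCGG between them. Where 1 was above its mean the other tended to be below, and their sum stayed between 95.1% and 103% in all 14 mice. The extreme was DIO-LFD replicate 1, with 59.2% at +111 and 39.2% at +243. The mean of the pair had an SD of 1.13 percentage points over the mice, against 4.54 and 4.29 for the sites singly.

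This was common among such pairs in the table. Of 4551 pairs of sites at successive CCGG motifs 40 to 170 bp apart, 43.2% had a mean sum between 95% and 105%, against 4.28% of 19161 pairs of sites outside CCGG at the same distances. The SD of the pair's mean was below that of both sites in 81.3% of the CCGG pairs and in 43.8% of the others. Single sites within CCGG had a mean level between 45% and 55% in 21.1% of 24757 cases, against 7.49% of 51004 sites elsewhere. Of the protocadherin sites, 3 lie within CCGG, both of Pcdhgc4 and Pcdhga11 +13, whose level was 77.5%. The part of CCGG in the levels of Pcdhgc4 was not tested.

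**Figure D5:**
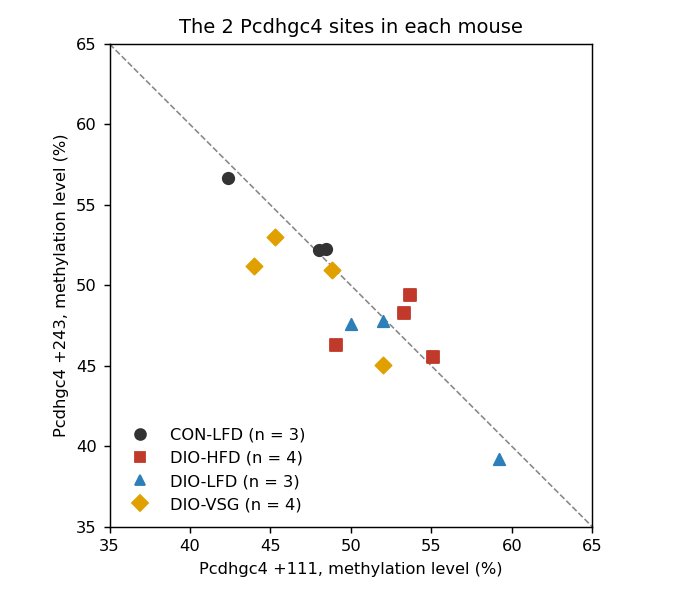
Methylation level (%) of Pcdhgc4 +243 (vertical) against Pcdhgc4 +111 (horizontal) in each of 14 mice, with a dashed line where the levels sum to 100%. The mice lie along the line, from CON-LFD replicate 3 at the upper left, with 42.3% and 56.7%, to DIO-LFD replicate 1 at the lower right, with 59.2% and 39.2%.

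Genes related to the cluster gave a reference. The non-clustered protocadherins, which lie singly and not in arrays, had 98 sites in 12 genes, of which 89 were tested. By limma, 0 passed the threshold in any comparison, and 12, 10, 21 and 2 had an unadjusted p under 0.05 in the order CON-LFD, DIO-LFD and DIO-VSG against DIO-HFD and DIO-VSG against DIO-LFD. These were 13.5%, 11.2%, 23.6% and 2.25% of the 89, where the shares of all tested sites were 7.76%, 10.1%, 25% and 3.98%. All of the 12, 10 and 21 were higher than in DIO-HFD mice, as were 77.3%, 78.5% and 80.6% of all tested sites with such a p. Among known or likely regulators of the clusters, such as CTCF, cohesin subunits, DNA methyltransferases and TET enzymes, 15 of 21 genes had a site and 71 sites were tested. None passed the threshold, and 2, 4, 6 and 2 had an unadjusted p under 0.05, which is 2.82%, 5.63%, 8.45% and 2.82%, each below the share of all tested sites. Of the 78 regulator sites in the table, 37 were in Stag2, all flagged as promoter and as CpG island.

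Neighbors of the clusters on the chromosome had 36 sites in 4 of 19 genes, and 25 of these sites were in Pcdh1, which the non-clustered list also holds. Of 30 tested, 0 passed the threshold and 3, 10, 15 and 1 had an unadjusted p under 0.05 by limma, or 10%, 33.3%, 50.0% and 3.33%. For DIO-VSG against DIO-HFD the 15 neighbor sites were all higher in DIO-VSG mice, and the 50.0% stands beside the 25% of all tested sites and the 1 of 14 in the protocadherin clusters. Over its 25 sites Pcdh1 averaged 62.9% ± 7.38 (SD, n = 4) in DIO-HFD and 74.3% ± 0.352 (SD, n = 4) in DIO-VSG mice. Most of these sites share a gene, and the lists were not tested against each other.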

How the data were processed

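RRBS had been run on DNA of mammary fat pads from the side without the tumor. Per the study's methods, reads were aligned to mm10 with Bismark, calls were made with methylKit, bases of low variability or extreme coverage were removed, and 1 CON-LFD and 1 DIO-LFD mouse were excluded. The authors deposited each methylation level as a fraction from 0 to 1 per site and mouse, with no read counts, so depth and precision per site are unknown. Of 75761 sites, 10151 still had an SD under 0.05. Levels are printed as percentages.

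Groups came from the sample labels. Sites were taken by gene symbol as the table assigns it, and positions were checked against GENCODE M21 and the mm10 sequence. No sequence is printed here. limma 3.58.1 in R 4.3.3 (no trend, not robust) was fitted to M with an offset of 0.01 for the 65610 sites with an SD of at least 0.05, 4 groups in 1 model, and tested on simulated data. The study's own test is given by reference only. Mean levels over the sites were compared without a test. Python 3.11.15, NumPy 2.4.6, pandas 2.3.3 and Matplotlib 3.10.9 were used.

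The members, lists and tests were chosen with earlier results of these data known. Sites named were the 3 with the smallest p per comparison, the genes with the most sites, the C-type gene, the genes of highest and lowest mean and the site of largest SD. Others named for contrast with these, both Pcdhgc4 sites between groups included, were picked once their values were known. Alternative settings were an offset of 0.1, levels in place of M, trend and robust, only the 2 groups compared, centring on each mouse's median, no SD filter or an SD of at least 0.1, a block for the replicate number, and each mouse left out in turn. For mean levels they were tested sites only, equal weight per gene, each mouse relative to its median, leaving out each mouse and, chosen after seeing the data, sites outside CCGG.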

Additional observations from a re-analysis of the deposited data

Results flagged for a closer look

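In the groups of 4 mice, DIO-HFD and DIO-VSG, the gap of the highest or lowest mouse to the next was set against the group's range for the 17 sites, the 6 gene means and the overall mean, 48 groups of values in all. In 1 the gap was above Dixon's critical value at the 95% level, where chance flags about 1 group in 20. At Pcdhga10 +991 DIO-HFD replicate 1 was at 81.6% and the other DIO-HFD mice at 49.0%, 51.8% and 53.7%, a gap of 0.853 of the range. This mouse was also the highest of the 14 over all sites of the table.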

How the results depend on the processing

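Under all alternatives but 1, 0 protocadherin sites passed the adjusted threshold in each comparison. The exception was DIO-LFD against DIO-HFD without DIO-HFD replicate 1, where 1 did (Pcdhga4 +794, difference in M 1.59, limma adjusted p = 0.0413). In that setting 14.6% of all tested sites passed as well. The range with 1 mouse left out was thus 0 to 1. The 12 named differences in M, chosen for small p in these same data, kept their direction under every alternative run. Many alternatives could not change it. Trend and robust, the SD settings, only the 2 groups compared and leaving out a mouse of another group leave M as it was. With the replicate block, 0 sites passed the threshold and 1 had an unadjusted p under 0.05 in each comparison. Of all 65610 tested sites, 4914, 6119 and 18113 had such a p for CON-LFD, DIO-LFD and DIO-VSG against DIO-HFD. For DIO-VSG against DIO-LFD 2938 did. Replicate numbers were not taken to pair the mice, since only 4 of the 19 correlations of same-numbered mice across sites were over 0.1 (range -0.0804 to 0.202). As a hint from the data and not the design, 8 of 14 mice correlated best with a mouse of their own number. The difference of the mean level moved most relative to each mouse's median, to -2.46 for CON-LFD and -3.28 percentage points for DIO-VSG against DIO-HFD. With 1 mouse left out its range was 0.113 to 3.9 for CON-LFD against DIO-HFD, 1.91 to 6.41 for DIO-LFD against DIO-HFD, 1.96 to 5.74 for DIO-VSG against DIO-HFD, and -2.71 to 1.79 for DIO-VSG against DIO-LFD. Without the sites within CCGG it was 2.28, 4.82, 4.64 and -0.180 in the same order. With 1 mouse left out, the number of sites with an unadjusted p under 0.05 ran from 0 to 0, 1 to 3, 0 to 2 and 0 to 2. With every mouse kept in, the shares of all tested sites were 7.76%, 10.1%, 25.0% and 3.98%. Without DIO-HFD replicate 1 these shares were 30.9%, 32.6%, 44.9% and 6.77%, beside 0, 1, 1 and 2 of the 14 protocadherin sites. The limits are the unknown depth, 3 or 4 mice a group, and sites in 6 of 58 genes, and neighboring sites can share reads.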

Other observations

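The gamma first exons hold 4 more sites, which the table assigned to other genes. In the first exon of Pcdhgc3, a C-type gene, the site assigned to BC037039 (+473, position 37807450) was at 49.9% ± 4.62 (SD, n = 14) and lies within CCGG, as both Pcdhgc4 sites do. In the first exon of Pcdhgc5, also C-type, 3 sites assigned to Gm38182 lie 35 to 55 bp before the end of the exon (37822079, 37822089 and 37822099) and were at 68.0%, 66.8% and 85.9%. At the last of these DIO-VSG mice averaged 89.2% and DIO-HFD mice 80.4%, with overlapping groups (limma adjusted p = 0.194).

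Outside the exons, 2 sites in an intron of 11 alpha genes, assigned to Gm10545, were at 87.2% and 68.6%, and 3 sites between the beta and gamma clusters, assigned to 4930517L18Rik, were at 86.8%, 94.8% and 94.7%.

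Among the regulator sites, the smallest p in DIO-VSG against DIO-HFD was in the promoter of Dnmt3a, a de novo DNA methyltransferase, at +155. It was at 6.34% ± 2.35 (SD, n = 4) in DIO-VSG and 20.5% ± 8.88 (SD, n = 4) in DIO-HFD mice (limma adjusted p = 0.150). The same site had the smallest p of the regulator sites in CON-LFD against DIO-HFD. It was at 7.75% ± 1.38 (SD, n = 3) in CON-LFD mice (limma adjusted p = 0.611). Over its 7 sites Dnmt3a averaged 45.6% in DIO-VSG and 45.9% in DIO-HFD mice. The site at +155 was chosen after its values were seen.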
